A study of Mus musculus with 9 samples.

Results

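The genes described here are 10 genes of the endoplasmic reticulum stress response, measured in the mouse substantia nigra pars compacta. They are Hspa5, Xbp1, Manf, Herpud1, Pdia4, Dnajb11, Sdf2l1, Creld2, Hyou1 and Calr, known as targets of the transcription factors ATF6 and XBP1. They were picked by symbol, 10 of the 27339 genes in the table, and the choice was made knowing how they differed between MPTP-treated and control mice. That difference is therefore given below as a description, without a test. All 10 had a level high enough to enter the tests across genes.

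Proteins that are to be secreted or placed in membranes fold inside the endoplasmic reticulum, with the help of chaperones. When unfolded proteins build up there, sensors in its membrane start the unfolded protein response. ATF6 moves to the Golgi and is cut to free a transcription factor, IRE1 splices the Xbp1 mRNA so that it encodes the active factor XBP1, and PERK slows protein synthesis and raises ATF4. ATF6 and XBP1 raise the chaperones and the machinery that removes misfolded proteins. In dopamine neurons of the nigra this response is studied because it is switched on in models of Parkinson's disease, and because MANF, one of its secreted products, supports these neurons.

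RNA sequencing was done on 9 libraries in 3 groups of 3. One group is labelled Ctrl and another MPTP. The labels describe the last as MPTP + MCT-KD, a ketogenic diet of medium-chain triglycerides fed to MPTP-treated mice (called the diet group here). MPTP is a toxin whose oxidised product enters dopamine neurons through their dopamine transporter and blocks mitochondrial respiration. The sources used here do not give strain, age, sex, doses, feeding schedule or the time of sampling, and a diet group without MPTP was not analysed here. No label ties a library to an animal of its own, so p-values reflect only how these libraries vary, which may be technical.

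Libraries held between 33.2 and 40 M counts (M being the SI prefix mega). The dopamine neuron enzyme Th was present in every library, at 48.1 to 108 counts per M counts of a library (CPM). Ctrl 3 stood apart through choroid plexus markers, whose summed level was 1244 CPM there and 29.7 to 104 CPM in the other 8 libraries. No 2 libraries of a group agreed within sampling noise.

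The motifs of the named regulators are shown first, with the promoter stretches of those of the 10 genes that hold one. ATF6 and XBP1 act through the endoplasmic reticulum stress element (ERSE), searched as CCAAT, 9 bases of any kind and CCACG, or as the same letters on the other strand, CGTGG, 9 bases and ATTGG. A shorter relative, ERSE-II, was searched as ATTGG, 1 base and CCACG, or CGTGG, 1 base and CCAAT, and the core of the XBP1 element (UPRE) as TGACGTGG or CCACGTCA. The windows searched were the RefSeq promoters of build GRCm38.p6, from 250 bases before a transcription start to 50 bases from it on. 8 of the 10 genes had such a window, the other 2 being Manf and Hyou1. The 5 stretches below hold the matches in capitals, 5′ to 3′ on the strand of the gene.
Hspa5 (ERSE): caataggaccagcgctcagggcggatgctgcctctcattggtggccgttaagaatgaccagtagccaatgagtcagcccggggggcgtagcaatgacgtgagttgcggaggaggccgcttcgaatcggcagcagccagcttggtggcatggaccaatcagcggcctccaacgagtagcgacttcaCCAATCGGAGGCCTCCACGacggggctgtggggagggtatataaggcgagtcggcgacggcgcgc
Calr (ERSE, other strand): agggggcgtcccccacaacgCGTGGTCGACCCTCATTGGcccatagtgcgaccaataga
Creld2 (ERSE, other strand): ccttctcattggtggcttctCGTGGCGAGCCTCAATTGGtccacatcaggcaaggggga
Herpud1 (ERSE-II): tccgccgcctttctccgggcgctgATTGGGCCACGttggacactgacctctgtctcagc
Dnajb11 (ERSE-II): cccggcggcgATTGGCCCACGcctggctgc

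These stretches lie at chr2:34771840-34772089 on the plus strand for Hspa5, chr8:84847055-84847113 on the minus strand for Calr and chr15:88819500-88819558 on the plus strand for Creld2. Those of Herpud1 and Dnajb11 lie at chr8:94386353-94386411 and chr16:22857842-22857871, both on the plus strand. Counting the start as base 1, with no base 0, the match of Hspa5 ran from -65 to -47, that of Creld2 from -126 to -108 and that of Calr from -162 to -144. The ERSE-II of Herpud1 ran from -52 to -42. That of Dnajb11 ran from 8 to 18 and so lay just inside the transcribed sequence. For Hspa5, GENCODE M21 starts the gene further upstream, at base 34771970 of chromosome 2, so that its match lies within the gene as GENCODE draws it.

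An ERSE was found in 3 of the 8 windows, against 39 of all 32851 promoter windows of the genome (0.119%). ERSE-II was found in 2 of the 8, against 12 of 32851 (0.0365%). No window in the genome held both. The UPRE core was in none of the 8 and in 222 of 32851 windows (0.676%). The windows of Xbp1, Pdia4 and Sdf2l1 held none of the searched letters, which describes these windows only. The genes were picked as targets of the factors that bind this element, so the excess over all promoters is no independent finding.

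**Figure D1:**
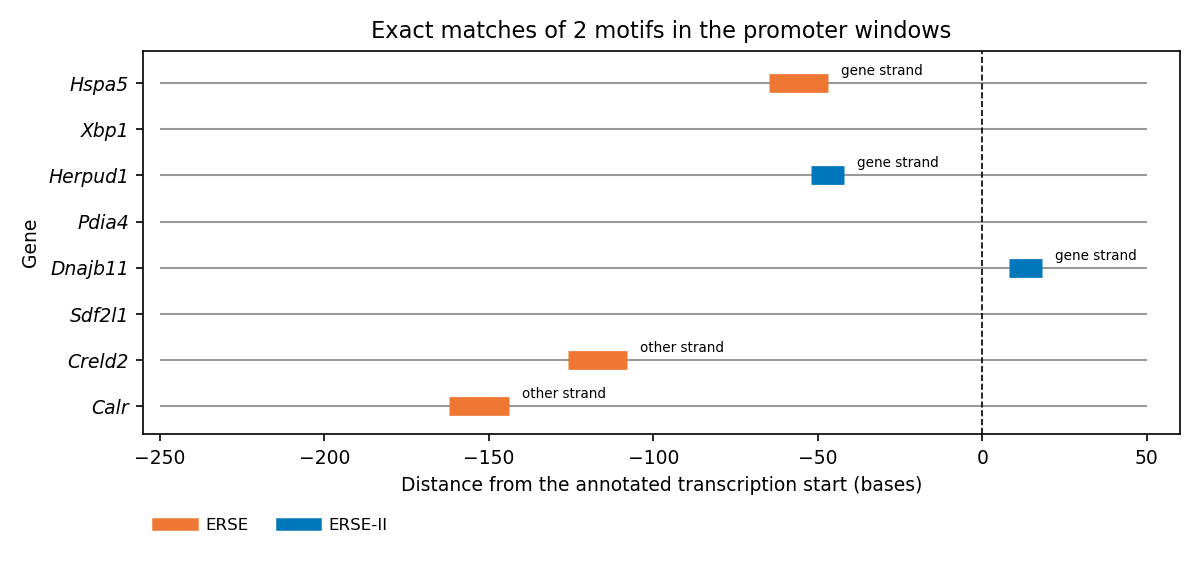
Position of exact ERSE (orange) and ERSE-II (blue) matches in the promoter windows of the 8 genes that have one, in bases from the RefSeq transcription start (dashed line). Hspa5 and Herpud1 carry theirs within 65 bases upstream of the start, Creld2 and Calr further upstream, and Dnajb11 just after the start.

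Levels differed widely between these genes when compared per transcript length, in FPKM (fragments per kilobase and M fragments mapped). Calr, which encodes the calcium-binding lectin chaperone calreticulin, averaged 130 FPKM over the 9 libraries and ranked 340 of 13810 annotated genes tested. Hspa5, which encodes BiP, the main Hsp70 chaperone of the endoplasmic reticulum, averaged 101 FPKM and ranked 489. Xbp1 followed at 42.5 FPKM, Herpud1 at 37.9, Hyou1 at 30.5, Dnajb11 at 21.8, Manf at 19.2, Pdia4 at 15.1, Creld2 at 10 and Sdf2l1 at 9.33 FPKM. Even the lowest, Sdf2l1, lay in the upper 48.0% of annotated genes tested. Calr was above Hspa5 in 9 of 9 libraries although their ranges overlapped. Xbp1 was above Herpud1 in 8 of 9 libraries and Creld2 above Sdf2l1 in 6 of 9, so these neighbours in the order were close.

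Relative to its level, the counting error of a gene is larger the fewer its counts. Hspa5 had 8867 to 13673 counts per library and Sdf2l1, the least counted, had 298 to 491. Exons overlapped those of other genes for Manf and Pdia4. In GENCODE M21, 146 of the 3524 exon bases of Manf (4.14%) are shared with Dcaf1 on the opposite strand and 166 with an antisense transcript. On the same strand, Manf shares 14 exon bases with Rbm15b, and Pdia4 shares 14 of 2399 with Mir704. Without a stated strand setting, reads of the opposite-strand bases cannot be assigned, and such a setting would not separate those of the same strand.

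MPTP was compared with Ctrl to see what the toxin did to nigral transcripts, and this contrast was known when the genes were chosen. All 10 genes had a lower fitted level in MPTP (50.4% of all genes did), or 9 without Ctrl 2 or MPTP 1, where Hyou1 stood at 0.012 and 0.0093. With all libraries they had a median log2 fold change of -0.28 (-17.5%), against -0.00092 over the 14949 genes tested. For 7 of the 10, every MPTP library lay below every Ctrl library. Of all genes tested 5.41% were lower in this way, and because the genes were chosen on this contrast, nothing is read from the excess. In bulk tissue, fewer cells of a type and less RNA per cell cannot be told apart.

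Hspa5 (ENSMUSG00000026864, chromosome 2, 34771970 to 34777547, GRCm38) was at 340.4, 355 and 359.6 CPM in the 3 Ctrl libraries. In the MPTP libraries it was at 264, 268 and 279 CPM. The diet libraries held 347, 287 and 301 CPM. The means were 352 ± 10.1 CPM in Ctrl, 270.4 ± 7.83 in MPTP and 312 ± 31.1 in the diet group (SD, n = 3), a fitted difference of -23.1% for MPTP from Ctrl. The MPTP libraries were tightly grouped and apart from Ctrl, whereas diet library 1 reached the Ctrl range and the other 2 diet libraries lay between the groups. In FPKM the same means were 115 ± 5.12, 88.3 ± 7.38 and 100.3 ± 12.

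The co-chaperones that work with BiP did not all follow it. Dnajb11 (ENSMUSG00000004460, chromosome 16, 22857845 to 22879634), a J-domain protein that hands substrates to BiP, was at 45.9, 48.3 and 48.1 CPM in Ctrl, at 43.9, 34.4 and 40.1 CPM in MPTP and at 46.9, 42.6 and 47.1 CPM in the diet group. Sdf2l1 (ENSMUSG00000022769, chromosome 16, 17130138 to 17132383), a partner of Dnajb11 in the BiP cycle, was at 12.1, 12.2 and 11.3 CPM in Ctrl and at 9.45, 9.09 and 9.90 CPM in MPTP. Both were below every Ctrl library in all 3 MPTP libraries, by a mean difference of -16.8% for Dnajb11 and -20.1% for Sdf2l1. The diet libraries of Sdf2l1 were spread over the widest relative range of the 10 genes, 14.2, 8.91 and 11.3 CPM (coefficient of variation 23.0%), with library 1 above all Ctrl libraries and library 2 below all MPTP libraries. Hyou1 (ENSMUSG00000032115, chromosome 9, 44379490 to 44392369), the large Hsp70-like protein that exchanges the nucleotide on BiP, was at 138, 145 and 138 CPM in Ctrl and 135, 139.6 and 143 CPM in MPTP. Its groups overlapped and the fitted difference was -0.948%. In the diet group it was at 142, 122 and 136 CPM, with library 2 the lowest of all 9.

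Among the other folding proteins, Pdia4 (ENSMUSG00000025823, chromosome 6, 47796141 to 47813430), an isomerase that forms disulfide bonds, was at 39.4, 40.9 and 46.0 CPM in Ctrl, 34.4, 31.9 and 36.9 CPM in MPTP and 36.1, 39.7 and 38.1 CPM in the diet group. Its MPTP libraries lay below Ctrl (fitted difference -18.2%), and its diet libraries overlapped both other groups. Calr (ENSMUSG00000003814, chromosome 8, 84841850 to 84846934) was at 294, 327 and 299 CPM in Ctrl, 301, 272 and 288 CPM in MPTP and 325, 278 and 313 CPM in the diet group. Creld2 (ENSMUSG00000023272, chromosome 15, 88819646 to 88826683), a secreted-pathway protein with isomerase activity, was at 13.7, 15.0 and 14.9 CPM in Ctrl, 13.3, 15.6 and 12.2 CPM in MPTP and 18, 14.9 and 12.7 CPM in the diet group. For Calr and Creld2 the 3 groups overlapped, and the fitted differences of MPTP from Ctrl were -6.45% and -5.93%. Calr, Creld2 and Hyou1 are the 3 genes outside the non-overlapping set, and Herpud1, at -13.7%, had the smallest difference inside it.

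Xbp1 (ENSMUSG00000020484, chromosome 11, 5520659 to 5525893) encodes the transcription factor itself. It was at 96.2, 112 and 99.2 CPM in Ctrl, 83.1, 81.1 and 85.1 CPM in MPTP and 104, 87.3 and 95 CPM in the diet group. The lowest Ctrl library was above the highest MPTP library, and the diet libraries reached from just above MPTP into the Ctrl range. Counts per gene do not tell the spliced from the unspliced Xbp1 mRNA, so the activity of IRE1 was not measured here.

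Herpud1 (ENSMUSG00000031770, chromosome 8, 94386438 to 94395377), which organises the removal of misfolded proteins from the endoplasmic reticulum, was at 84.8, 78.2 and 80.5 CPM in Ctrl and at 69.9, 72.8 and 67.4 CPM in MPTP. Its diet libraries, at 79.2, 80.4 and 75.5 CPM, were the least spread of the 10 genes (coefficient of variation 3.27%), all above MPTP. Manf (ENSMUSG00000032575, chromosome 9, 106838312 to 106891979), the secreted factor that also acts inside the endoplasmic reticulum, was at 46.8, 48.5 and 47.8 CPM in Ctrl, 36.9, 34.2 and 40.5 CPM in MPTP and 52.4, 42.8 and 42.7 CPM in the diet group. Ctrl was the tightest group for Manf, MPTP lay wholly below it (fitted difference -21.9%), and diet library 1 lay above every Ctrl library.

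**Figure D2:**
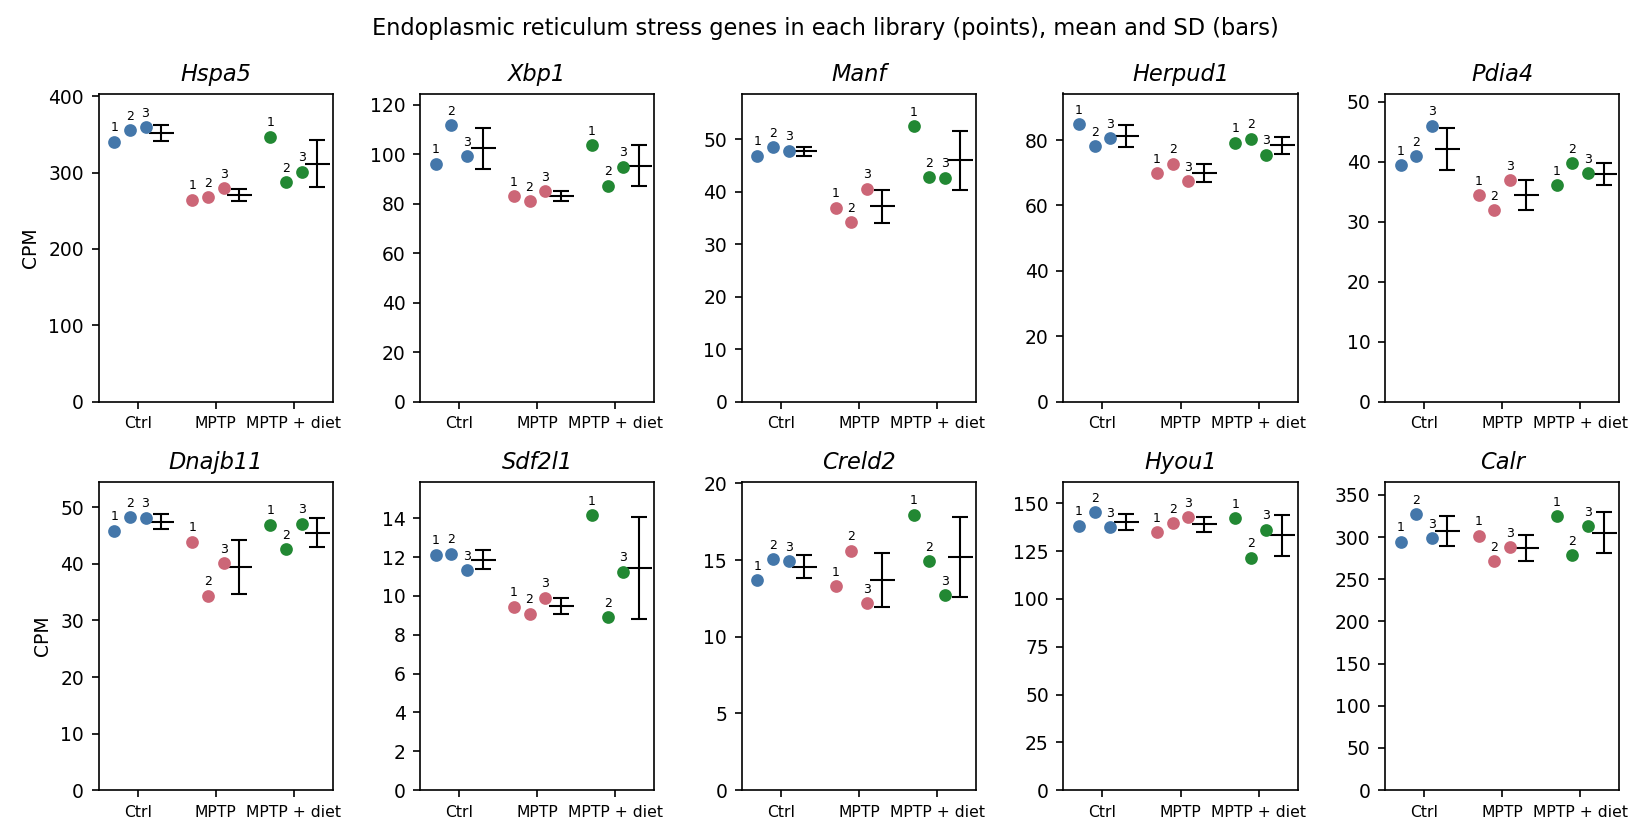
CPM of the 10 genes (1 panel each, vertical axis from 0) in the 3 libraries of each group, numbered by replicate, with the mean and SD as bars beside them. MPTP lies below Ctrl without overlap in the panels of Hspa5, Xbp1, Manf, Herpud1, Pdia4, Dnajb11 and Sdf2l1, and overlaps it in those of Creld2, Hyou1 and Calr.

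The count of 7 non-overlapping genes was 7 or 8 when each library of the 2 groups was left out in turn. Leaving out a library cannot lower this count, so these values are no check of its stability. In MPTP 1, 2 and 3, 9, 8 and 9 of the 10 genes lay below the lowest Ctrl library. These counts belong to the contrast on which the genes were chosen and have no share over all genes beside them. Nothing is read from them.

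The comparison of the diet group with MPTP showed how MPTP-treated mice differed with the diet. Without a diet group lacking MPTP, it cannot tell whether the diet altered the toxin's effect. Its MPTP libraries are those of the contrast on which the genes were chosen, so the values are not independent of the choice. Fitted levels were higher in the diet group for 9 of 10 genes (50.2% of all genes), with a median log2 fold change of 0.18 (13.3%), against 0.00056 over all genes tested. None of the 10 passed edgeR's quasi-likelihood test with Benjamini-Hochberg adjustment, nor did any of the 14949 genes (0%), while DESeq2 called 19 genes and limma 0, none of these 10 in either. At an unadjusted p under 0.05, 5 of the 10 were higher, against 3.76% of all genes tested.

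Those 5 were Hspa5, Xbp1, Manf, Herpud1 and Dnajb11. Manf had a log2 fold change of 0.30 (SE 0.0886, 95% interval 0.11 to 0.49) and Hspa5 one of 0.21 (SE 0.0624, interval 0.071 to 0.34), both with an edgeR adjusted p of 0.588. Xbp1 stood at 0.20 (SE 0.0715, interval 0.044 to 0.35) and Herpud1 at 0.16 (SE 0.0555, interval 0.042 to 0.28), both with an edgeR adjusted p of 0.625. For Dnajb11 the value was 0.21 (interval 0.023 to 0.39, edgeR adjusted p = 0.630). Over the alternative settings the adjusted p ranged from 0.256 to 0.828 for Manf and from 0.269 to 0.828 for Hspa5. The intervals of the remaining 5 genes included 0, from the -0.052 to 0.59 of Sdf2l1 (0.27) to the -0.19 to 0.068 of Hyou1 (-0.061). Pdia4 stood at 0.14, Creld2 at 0.15 and Calr at 0.089.

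In the libraries themselves, all 3 diet libraries lay above all 3 MPTP libraries for 4 of the 10 genes, Hspa5, Xbp1, Manf and Herpud1. Of all genes tested 6.64% were higher in this way. Leaving out a library cannot undo such a separation, so these 4 genes had to remain apart and the count could only stay or rise. It was 7 without diet library 2, with Dnajb11, Sdf2l1 and Calr added, for which the share of 6.64%, taken with all libraries, is no measure. Diet library 1 was the highest of its group for 7 of the 10 genes and diet library 2 the lowest for 6. Without diet library 1 the median log2 fold change was 0.13, and without diet library 2 it was 0.21.

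**Figure D3:**
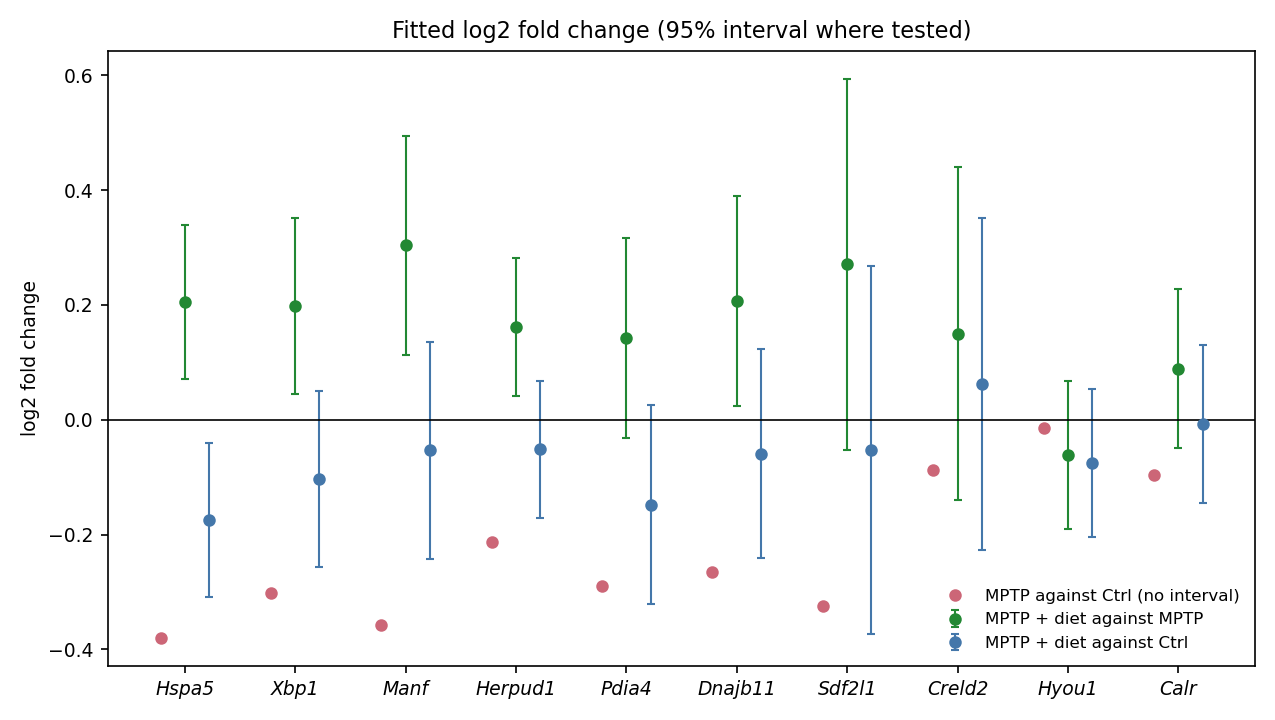
Fitted log2 fold change (vertical axis) of each of the 10 genes in the 3 comparisons, with the 95% interval of the edgeR fit for the 2 comparisons of the diet group and points only for MPTP against Ctrl, on which the genes were chosen. The intervals of the diet group against MPTP lie above 0 for 5 genes before adjustment over all genes, and against Ctrl all but that of Hspa5 include 0.

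The comparison of the diet group with Ctrl asked how far mice with both treatments differed from those labelled Ctrl. It shares its Ctrl libraries with the contrast on which the genes were chosen. Fitted levels were lower in the diet group for 9 of 10 genes (50.5% of all genes), with a median log2 fold change of -0.056 (-3.81%), against -0.0015 over all genes tested. That median was -0.12 without diet library 1, -0.0078 without diet library 2 and -0.056 with all libraries, so it rests on single libraries. No gene of the 10 passed the edgeR test, nor any of all genes tested (0%), while DESeq2 called 16 genes and limma 0, none of these 10. At an unadjusted p under 0.05 there was 1 gene, Hspa5, against 3.36% of all genes tested that were lower.

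Hspa5 had a log2 fold change of -0.17 in the diet group (95% interval -0.31 to -0.040, edgeR adjusted p = 0.740). The next lowest were Pdia4 at -0.15 (interval -0.32 to 0.025) and Xbp1 at -0.10 (interval -0.26 to 0.051). Creld2 was the 1 gene above Ctrl, at 0.062. No gene had all diet libraries below all Ctrl libraries, where the share over all genes tested was 6.4%. Without diet library 1 there were 5 such genes, Hspa5, Xbp1, Manf, Sdf2l1 and Hyou1. Without Ctrl 1 there were 3, Hspa5, Pdia4 and Dnajb11. Such a count can only stay or rise when a library is left out. The share of 6.4% was taken with all libraries and is no measure for it, so nothing is read from these counts.

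The mean of the diet group lay between those of MPTP and Ctrl for 8 of the 10 genes, an order found for 15.7% of all genes tested. It combines the contrast used for the choice with one that shares its libraries, and nothing is read from it. Creld2 was highest in the diet group and Hyou1 lowest there.

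Over the 9 libraries some of these genes varied together and others did not. With each gene set against the mean log2 level of the other 9, Pearson's r was 0.96 for Hspa5, 0.95 for Xbp1, 0.94 for Manf and 0.86 for Sdf2l1. It was 0.78 for Dnajb11, 0.73 for Calr, 0.65 for Herpud1, 0.57 for Pdia4, 0.34 for Creld2 and 0.27 for Hyou1. The points share libraries and group differences, and the values are a description. Hspa5, Calr and Creld2 hold an ERSE and still had different values, as did Xbp1 and Pdia4, which hold none of the motifs in their windows. The mean log2 level of the 10 genes, set to 0 in Ctrl, was -0.22, -0.27 and -0.21 in MPTP and 0.053, -0.16 and -0.10 with the diet.

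**Figure D4:**
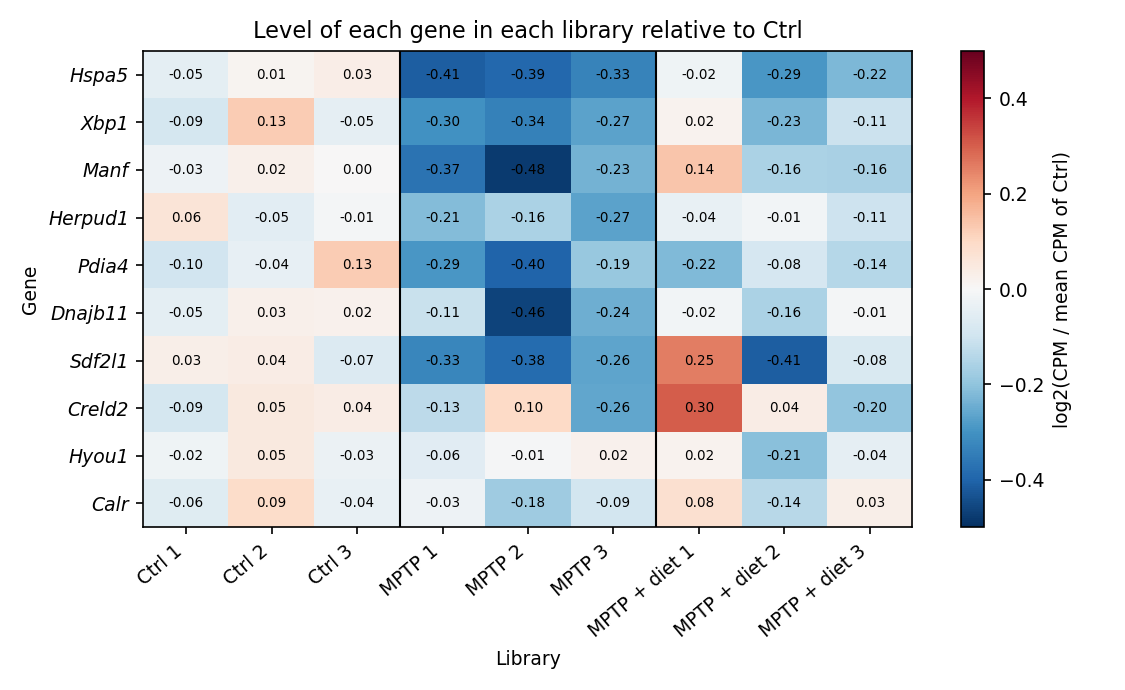
Level of each of the 10 genes in each of the 9 libraries as log2 of its CPM over the mean CPM of Ctrl (colour and printed value; blue is below Ctrl, red above). MPTP libraries are mostly blue, diet library 1 is mostly near or above 0, with Creld2 at 0.30 and Sdf2l1 at 0.25, and diet library 2 is mostly below 0, with Sdf2l1 at -0.41.

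Of 12798 annotated genes outside the 10, those most like their mean level over the 9 libraries were Gigyf2 (Pearson's r 0.949), Zfp108 (0.946), Ncbp3 (0.943), Mrps18c (0.938), Stx12 (0.928) and Dnajb1 (0.925). As the highest of 12798 values over only 9 libraries, these r values are high through the choice, and nothing is read from their size. None of the genes so named belongs to the lists of endoplasmic reticulum genes. Dnajb1, a cytosolic J-domain protein of the heat-shock response, was also the gene of smallest p in MPTP against Ctrl, where it fell from 88.4 ± 3.55 to 60.3 ± 1.67 CPM (SD, n = 3). Its log2 fold change was -0.55 (SE 0.0652, edgeR adjusted p = 0.0141). The other gene that passed that test was the Hsp70 gene Hspa1b, and these 2 were 0.0134% of the genes tested. Neither was called without Ctrl 2, Ctrl 3 or MPTP 3, without robust moderation, by limma or with a choroid plexus score in the fit, where no gene passed. All 15 listed genes of the cytosolic heat-shock response had a fitted level below Ctrl in MPTP, with a median log2 fold change of -0.11.

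Of 99 other genes of the endoplasmic reticulum and its stress sensors in 5 lists, 97 were tested and none passed the edgeR test in any comparison. At an unadjusted p under 0.05 there were 1 higher and 3 lower in MPTP against Ctrl, where 2.68% and 2.69% of all genes tested were. There were 1 higher and 1 lower in the diet group against MPTP (3.76% and 4.02% of all genes) and 1 higher in the diet group against Ctrl (3.36%). DESeq2 and limma called none of them either. Their median log2 fold change was -0.035 in MPTP, with 64 of 97 below 0, and 0.024 in the diet group against MPTP, with 61 of 97 above 0.

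Among 22 folding genes, 18 were below Ctrl in MPTP and the median log2 fold change was -0.051. The most abundant were Hsp90b1, the Hsp90 chaperone of the organelle, at 375 ± 20.9 CPM in Ctrl and 355 ± 19.1 in MPTP, and Canx, the membrane-bound lectin chaperone calnexin, at 447 ± 3.26 and 431 ± 17.7 CPM (SD, n = 3). Fkbp2, a prolyl isomerase, had a log2 fold change of -0.024. The gene of this list nearest to the 10 was Dnajc3, a J-domain inhibitor of PERK that was singled out after its values were seen. It was at 101 ± 2.18 CPM in Ctrl, 85.2 ± 3.10 in MPTP and 97.7 ± 5.67 in the diet group (SD, n = 3), with log2 fold changes of -0.25 in MPTP against Ctrl and 0.20 in the diet group against MPTP. Its edgeR adjusted p-values were 0.672 and 0.588. Dnajc3 also holds an ERSE, at -105 to -87 from its RefSeq start, in this stretch of chr14:118937807-118937865 on the plus strand.
Dnajc3 (ERSE): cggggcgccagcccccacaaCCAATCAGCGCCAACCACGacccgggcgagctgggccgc

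The element was also present in genes with small fitted differences. Among the 84 genes of these lists with a promoter window, 7 (8.33%) held an ERSE, namely Hsp90b1, Canx, Pdia6, Dnajc3, Ero1lb, Derl3 and Syvn1. Their log2 fold changes in MPTP against Ctrl ran from -0.25 for Dnajc3 to 0.22 for Ero1lb, with a median of -0.052 and 4 of 7 below 0.

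The 18 genes of degradation, which move misfolded proteins to the proteasome, had a median log2 fold change of -0.022 in MPTP and -0.0038 in the diet group against MPTP. Vcp, the ATPase that pulls proteins from the membrane, stood at -0.044 in MPTP, and the lectin Os9 at 0.037. For 31 genes of protein entry and transport the medians were -0.046 and 0.031. Among these, the signal peptidase subunits Spcs1 and Sec11c stood at -0.028 and 0.021 and the translocation factor Sec62 at 0.026.

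The 12 sensors and their partners had a median of 0.023 in MPTP. Atf6 itself was at 0.051, Ern1 (IRE1) at 0.13 and Eif2ak3 (PERK) at 0.062, all 3 named for their role, after their values were seen. The protease Mbtps1, which cuts ATF6, stood at 0.071, Creb3 at 0.071 and Atf6b at 0.013. In the PERK arm, 14 of 16 listed genes were tested, 7 below 0 and 7 above, with a median of 0.0061. Its transcription factor Atf4 was at 123 ± 5.38 CPM in Ctrl, 125 ± 17.4 in MPTP and 123 ± 5.89 in the diet group (SD, n = 3), and the amino acid synthesis enzymes Psat1 and Asns stood at 0.12 and 0.065. Ddit4, an inhibitor of mTORC1 signalling induced by several stresses and singled out after its values were seen, was at 44.0 ± 9.62 CPM in Ctrl, 32.2 ± 1.88 in MPTP and 38.7 ± 4.38 in the diet group (SD, n = 3). Its log2 fold changes of -0.45 in MPTP against Ctrl and 0.27 in the diet group against MPTP had edgeR adjusted p-values of 0.893 and 0.683, and the first was the 1 value of this arm at an unadjusted p under 0.05 in that comparison. Nupr1, singled out after its values were seen, stood at -0.75 in MPTP and 0.82 in the diet group against MPTP at only 1.99 to 3.52 CPM on average (edgeR adjusted p = 0.915 and 0.662).

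**Figure D5:**
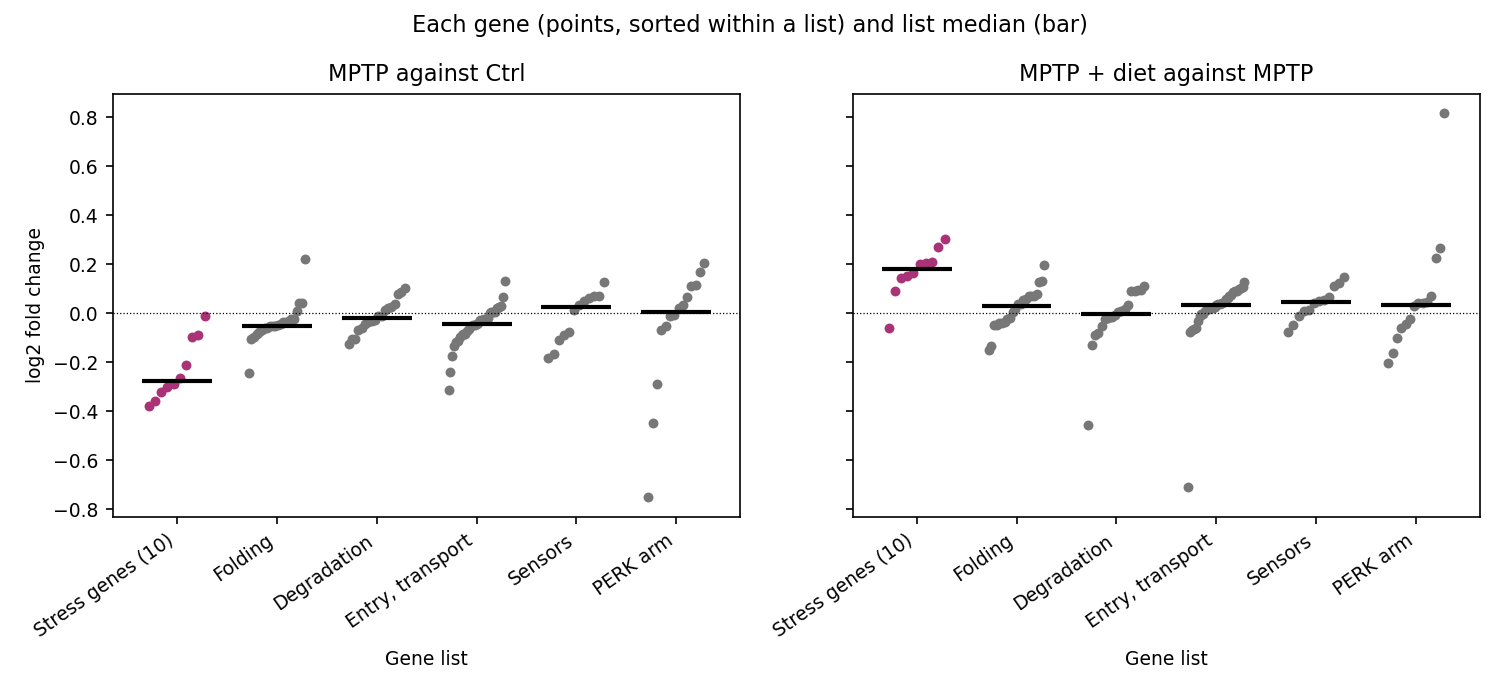
Fitted log2 fold change (vertical axis) of each tested gene (points, sorted within a list) and the list's median (bar) for the 10 stress genes and 5 other lists of endoplasmic reticulum genes, in MPTP against Ctrl (left) and in the diet group against MPTP (right). The bar of the 10 genes stands at -0.28 and 0.18, while the other bars lie between -0.051 and 0.045. The 10 genes were chosen knowing the left comparison, and the right one shares its MPTP libraries. Nothing is therefore read from the distance between their bar and the others.

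Relatives of the 10 genes by sequence or name stood between -0.11 and 0.024 in MPTP against Ctrl on the log2 scale, with 1 exception. Hspa8 and Hspa9, the cytosolic and mitochondrial Hsp70 proteins related to Hspa5, had log2 fold changes of -0.11 and 0.0029. Creld1 stood at -0.014, Sdf2 at -0.071, Herpud2 at 0.024, Pdia3 (also counted among the folding genes) at -0.062, Calr3 at -0.022 and Hspa4, a cytosolic relative of Hyou1, at 0.024. The exception was Dnajb1, given above. Cdnf, the relative of Manf, was low, at 0.889 to 1.42 CPM in Ctrl, and was not tested. None of the 9 relatives tested passed the edgeR test in either comparison of the diet group, with 1 at an unadjusted p under 0.05 in each, Dnajb1.

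Markers of cell types moved between groups and libraries as well. The 10 dopamine neuron markers summed to 745 to 889 CPM in Ctrl, 620 to 713 in MPTP and 589 to 726 in the diet group. All 10 had a fitted level below Ctrl in both MPTP groups, with median log2 fold changes of -0.38 in MPTP and -0.42 in the diet group, and 0.0065 in the diet group against MPTP, where the stress genes stood at 0.18. The 12 meningeal fibroblast markers summed to 178 to 260 CPM in Ctrl, 84.4 to 187 in MPTP and 109 to 302 in the diet group, with medians of -0.87 in MPTP and 0.89 in the diet group against MPTP. MPTP 3 held 187 meningeal CPM, within the Ctrl range, with a mean log2 level of the stress genes of -0.21, against -0.22 and -0.27 in MPTP 1 and 2. Diet library 1 held 109 meningeal CPM, the lowest of its group, and had the highest mean of the stress genes there. With a meningeal score in the fit, the median of the 10 genes was -0.28 in MPTP against Ctrl and 0.23 in the diet group against MPTP, and with a choroid plexus score it was -0.24 and 0.18. Of 4 mural cell markers, the contractile genes Tagln, Acta2 and Myh11 had fitted levels lower in MPTP, and higher in the diet group than in MPTP, while Pdgfrb had the opposite signs. The list's median was -0.66 in MPTP against Ctrl and 0.78 in the diet group against MPTP, none passed the edgeR test, and their sum was 86.5 to 110.1 CPM in Ctrl, 69.8 to 87.4 in MPTP and 78.3 to 125 in the diet group. Of 3 listed plasma cell markers, 2 were matched and 0 entered the tests. The matched markers summed to at most 1.23 CPM in a library. No list had a marker at 0 in all 9 libraries. Oligodendrocyte markers summed to 9871 to 12056 CPM in Ctrl, 10460.1 to 12831 in MPTP and 12608 to 13876 in the diet group. The part of any of these cell types in the results, meningeal fibroblasts and choroid plexus included, was not tested.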

How the data were processed

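The authors deposited 1 table for 9 libraries of mouse substantia nigra pars compacta RNA, with raw counts and FPKM values side by side for each gene and library, per the file headers. Per the labels, libraries were made from total RNA with the NEBNext Ultra kit. The genome build was GRCm38 (mm10), per the submitters' processing notes. The sources used here do not give the aligner, counter, annotation release or strand setting. Libraries were grouped by their titles. The 10 lines that named no gene were not used, and 27 symbols that had been turned into dates were replaced through GENCODE M21.

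In R 4.3.3, edgeR 4.0.16 fitted all 9 libraries in 1 robust quasi-likelihood model after TMM scaling. It covered the 14949 genes whose mean FPKM reached 0.5. Adjusted p-values are Benjamini-Hochberg values over these genes, with a threshold of 0.05. CPM are counts scaled by TMM, and log2 CPM has a prior count of 2. The fit was also run on simulated counts with known changes, and the outcome is not given here. Alternatives were DESeq2 1.42.0, limma 3.58.1 on log2(FPKM + 0.1) and log2(FPKM + 1), other scaling and filters, libraries left out, and a replicate block.

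The genes, lists and tests were chosen with earlier results of these data known. Named by rule were the 10 genes, their relatives, the 3 genes of highest mean FPKM and any gene called in each endoplasmic reticulum list, called heat-shock genes, and the 6 genes most like the mean of the 10. A gene that this rule takes is not reported here. Same-numbered libraries of MPTP and the diet group correlated at 0.107 to 0.182 in their deviations from the group means, above the minimum of 0.1. Differently numbered libraries of MPTP and the diet group correlated at -0.150 to 0.041, but those of MPTP and Ctrl reached 0.186. The correlations therefore do not establish a pairing of MPTP and diet libraries by number, and no label gives one. Promoters are RefSeq sequences, matched by symbol.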

Additional observations from a re-analysis of the deposited data

How the results depend on the processing

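With 22 alternative settings for each comparison, edgeR, DESeq2 and limma called none of the 10 genes in the comparisons of the diet group and none of the other endoplasmic reticulum genes in any comparison. The median of the 10 genes stayed between -0.30 and -0.24 in MPTP against Ctrl and between 0.13 and 0.23 in the diet group against MPTP. In the diet group against Ctrl it ran from -0.12 without diet library 1 to -0.0078 without diet library 2. With a replicate block the medians were -0.28, 0.18 and -0.066, and the block changed no call of these genes. Signs turned when libraries were left out for values near 0. Hyou1 in MPTP against Ctrl ran from -0.030 to 0.012, above 0 without Ctrl 2 or MPTP 1. Hyou1 in the diet group against MPTP ran from -0.11 to 0.0033, and in the diet group against Ctrl Calr ran from -0.054 to 0.060, Creld2 from -0.076 to 0.18, Manf from -0.16 to 0.00021 and Sdf2l1 from -0.23 to 0.10. In the comparisons of the diet group the libraries whose absence turned the sign were diet library 2 for Hyou1, Manf, Sdf2l1 and Calr, Ctrl 2 for Calr, and diet library 1 for Creld2. With a meningeal score in the fit, MPTP against Ctrl moved to -0.43 for Hspa5, -0.40 for Sdf2l1 and -0.27 for Creld2; the cause was not tested. Over all genes, DESeq2 called 14 in MPTP against Ctrl, where edgeR called 2, and limma, edgeR without robust moderation, without Ctrl 2, Ctrl 3 or MPTP 3, or with a choroid plexus score called 0. DESeq2 called 19 and 16 in the comparisons of the diet group, where edgeR called 0. The counts of non-overlapping genes with a library left out were added after seeing the data. With 3 libraries a group, an exact permutation test of 1 value cannot go below 0.1.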
